A study of Mus musculus with 6 samples.

Results

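Alx1, Alx4, Prrx1, Prrx2, Pax3 and Pax7 encode 6 transcription factors of the facial mesenchyme and neural crest. They were chosen by gene symbol in the GENCODE M21 annotation, by a rule that used no measured value but with earlier results of these data known, and are 6 of the 53801 genes in the count tables. The tables hold bulk RNA-seq of mouse maxillary prominences, the paired facial swellings that form the upper jaw and secondary palate, at embryonic day 12.5 (E12.5). The WT group has 3 samples from embryos labelled only as wild type. The Dlx2OE group has 3 samples from Wnt1cre; Rosa26Dlx2/- embryos. In these embryos Cre under the Wnt1 driver removes a stop cassette in neural crest cells, and a Flag-tagged Dlx2 is then read from the CAG promoter at 1 Rosa26 allele. The study's methods give C57BL/6J for the Rosa26 knock-in line and the wild-type mice, and no strain for the Wnt1cre mice. The endogenous Dlx2 genes were left in place in both groups, so the comparison asks how these 6 genes respond to extra Dlx2 in crest-derived tissue. Tissue came from littermates, and the sources do not say how many embryos went into a sample.

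All 6 proteins bind DNA through a paired-class homeodomain, which recognises TAAT cores and often binds as a dimer on palindromes of them. Alx1 and Alx4 act in the mesenchyme of the frontonasal region, and human mutations in ALX genes cause frontonasal dysplasia or skull defects. Prrx1 and Prrx2 are broad mesenchymal factors with overlapping roles in jaw, palate and limb. Pax3 and Pax7 carry a paired domain besides the homeodomain and act in the dorsal neural tube, the neural crest and its pigment cell derivatives, and muscle progenitors.

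The homeobox sequences of Alx1 and Alx4, the pair whose ratio changed order between the genotypes, are shown because this is the part that the genes share, and so the part where reads of 1 gene could be mistaken for reads of another. In the GENCODE M21 transcripts (build GRCm38), the homeobox of each of these genes is a stretch of 180 bp that is coding and exonic. In both genes an intron splits this stretch after 138 bp, with the remaining 42 bp in the next exon. For Alx1 the pieces are in exons 2 and 3 of 4 (chr10:103025135-103025272 and chr10:103022264-103022305, reverse strand). For Alx4 they are likewise in exons 2 and 3 of 4 (chr2:93668528-93668665 and chr2:93675296-93675337, forward strand). Capitals mark the bases at which these paralogues differ:
Alx1: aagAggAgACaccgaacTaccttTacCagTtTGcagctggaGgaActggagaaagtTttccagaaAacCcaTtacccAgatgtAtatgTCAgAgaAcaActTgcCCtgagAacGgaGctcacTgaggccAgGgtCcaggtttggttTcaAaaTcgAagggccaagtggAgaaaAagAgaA
Alx4: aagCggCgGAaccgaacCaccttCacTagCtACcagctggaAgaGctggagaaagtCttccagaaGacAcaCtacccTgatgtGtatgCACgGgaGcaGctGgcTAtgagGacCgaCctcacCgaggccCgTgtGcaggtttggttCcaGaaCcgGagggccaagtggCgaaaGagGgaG

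The differences are spread along the whole homeobox. Alx1 and Alx4 were identical at 138 of 180 bp (76.7%), and Prrx1 and Prrx2 at 142 (78.9%). Within the aligned homeobox the longest identical run was 12 bp for Alx1 and Alx4, 17 for Prrx1 and Prrx2, and 14 for Pax3 and Pax7. Over whole transcripts, where reads of 1 gene could be mistaken for reads of another, longer runs were shared. The longest run of bases shared by any transcripts of a pair was 19 bases for Alx1 and Alx4, 19 for Prrx1 and Prrx2, and 26 for Pax3 and Pax7. No run of 31 bases was therefore shared within a pair, so each shared run was shorter than a read. Between pairs, the one run of 31 bases or more was a 2-base repeat of 36 bases shared by Alx4 and Pax3.

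The genes are not clustered in the genome. Alx1 (ENSMUSG00000036602) spans chr10:102998707-103030215 on the reverse strand, and Alx4 (ENSMUSG00000040310) spans chr2:93642384-93681339 on the forward strand. Prrx1 (ENSMUSG00000026586) spans chr1:163245119-163313710 on the reverse strand, and Prrx2 (ENSMUSG00000039476) spans chr2:30834972-30881251 on the forward strand. Pax3 (ENSMUSG00000004872) spans chr1:78101267-78197134 and Pax7 (ENSMUSG00000028736) chr4:139737062-139833528, both on the reverse strand. Only Alx1 shares exonic sequence with another annotated gene: 243 bp, 4.22% of its exons, overlap the noncoding gene Gm17028 on the same strand.

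The libraries had 26155500 to 31308813 counts in genes. Dlx2 itself was at 41.0 ± 5.32 CPM (counts relative to library size, scaled by the TMM method; SD, n = 3) in WT and 124 ± 5.96 (SD, n = 3) in Dlx2OE (log2 fold change 1.60), and all Dlx2OE samples were above all WT samples. All 11 facial mesenchyme markers were detected, led by Col3a1 and Col1a2 in both groups. Their summed level was 5361 to 6029 CPM in WT and 5093 to 5635 CPM in Dlx2OE. Their detection shows mesenchyme but cannot tell the maxillary prominence from other parts of the face. The markers did not all keep their level: 2 of the 11 rose by edgeR, Twist1 and Twist2, and 1 fell, the matrix gene Postn, from 931 to 363 CPM (log2 fold change -1.36, adjusted p 0.0116 by edgeR). Over all genes tested, 2.99% passed as higher and 3.46% as lower by edgeR at an adjusted p under 0.05. Marker counts by edgeR given from here on stand beside these shares. Counts at an unadjusted p under 0.05 stand beside 29.5% of all genes in either direction, and DESeq2 counts beside 2428 of 19047 genes. Dlx2OE replicate 3 stood apart in the share of uniquely aligned reads that the counting assigned to no annotated feature, 15.4% against 5.34% to 8.21% in the other 5 samples. Dlx2OE replicate 1 stood apart in several of the genes described here, so results that rest on either sample are given with and without it.

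Among the 6 genes, Alx4 was the one called upregulated in Dlx2OE. Pax3 and Prrx1 were higher in every Dlx2OE sample than in any WT sample but missed the adjusted threshold, Prrx2 was near the same level in both groups, and Alx1 and Pax7 were split among the Dlx2OE samples. All 6 genes passed the filter on low counts. At an adjusted p under 0.05 (edgeR quasi-likelihood test, Benjamini-Hochberg adjustment over 17514 genes), 1 of the 6 passed, against 6.45% of all genes tested. With a log2 fold change above 1 as well, the same gene was called, against 1.5% of all genes called upregulated. At an unadjusted p under 0.05, 3 of the 6 passed (Alx4, Prrx1 and Pax3), against 29.5% of all genes. The groups did not overlap for 3 of the 6 genes, against 34.1% of all genes tested, and all 3 were higher in Dlx2OE, a pattern shown by 16.7% of all genes. The log2 fold change was above 0 for 5 of the 6 genes, against 50.3% of all genes. Its median was 0.75 over the 6 genes and 0.0028 over all genes tested.

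**Figure D1:**
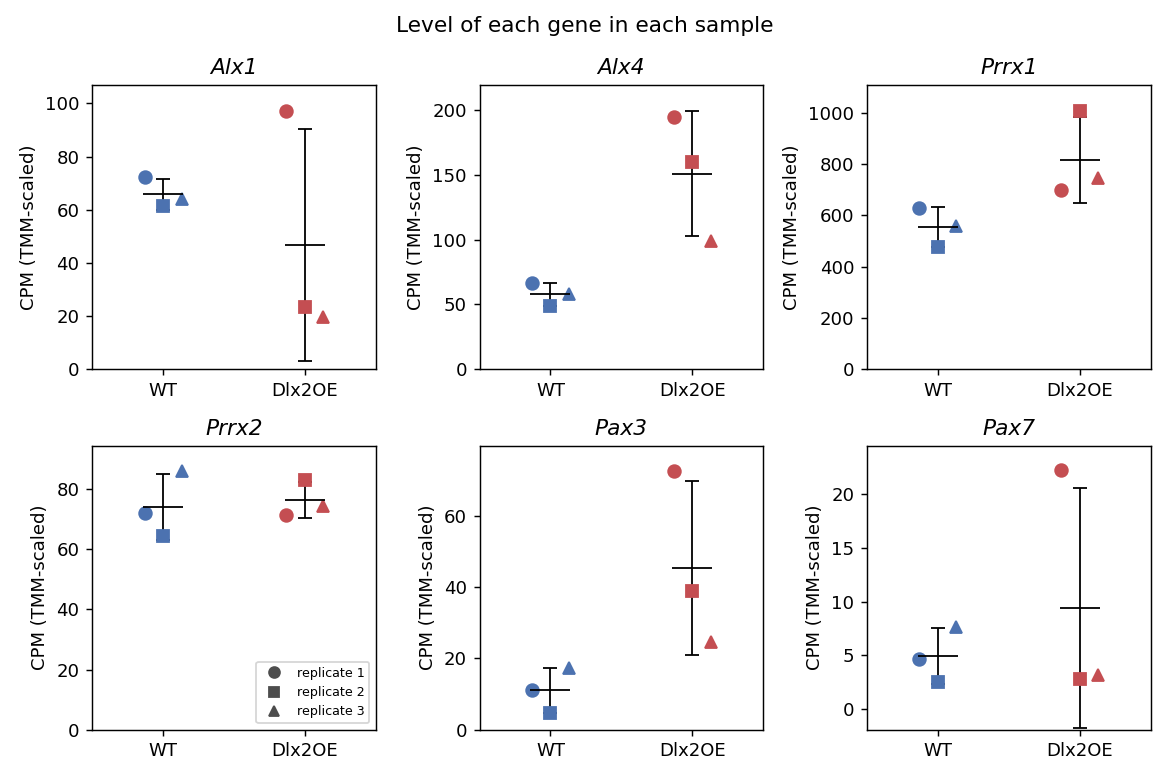
Level of each gene in each sample, in TMM-scaled CPM on a linear axis, with WT in blue and Dlx2OE in red; the marker shape gives the replicate, the long dash the group mean and the bar 1 SD (n = 3). The Dlx2OE samples lie above all WT samples for Alx4, Prrx1 and Pax3, while for Alx1 and Pax7 Dlx2OE replicate 1 is the highest of the 6 samples and the other Dlx2OE samples are low.

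Alx4, a factor of anterior facial and skull mesenchyme that is also required for normal digit number, rose in Dlx2OE. WT replicates 1 to 3 had 1936, 1471 and 1805 counts of Alx4, against 5768, 5025 and 2672 in Dlx2OE replicates 1 to 3. The matching levels were 66.1, 48.8 and 57.9 CPM in WT and 195, 160 and 98.7 CPM in Dlx2OE. The lowest Dlx2OE sample, replicate 3, was still above the highest WT sample. The mean went from 57.6 ± 8.67 CPM (SD, n = 3) to 151 ± 48.6 CPM (SD, n = 3), or 2.62-fold, with a log2 fold change of 1.39 (SE 0.239, 95% interval 0.84 to 1.94) and an adjusted p of 0.0211 in edgeR's quasi-likelihood test. Alx4 remained above the log2 threshold of 1 in each of the 6 fits that left out 1 sample. Its adjusted p by edgeR was 0.0094 without Dlx2OE replicate 3 and 0.0188 without Dlx2OE replicate 1, but 0.0653 without WT replicate 1, 0.108 without WT replicate 2 and 0.0690 without Dlx2OE replicate 2. After a correction for gene length and GC content the log2 fold change was 1.23 with an adjusted p of 0.0511 by edgeR.

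Alx1, whose loss in the mouse disturbs closure of the cranial neural tube and formation of the midface, had no common direction in Dlx2OE. In WT it had 2118, 1846 and 1990 counts, against 2881, 737 and 528 in Dlx2OE. On the CPM scale these were 72.4, 61.3 and 63.8 in WT, against 97.2, 23.5 and 19.5 in Dlx2OE. The WT samples were close together, whereas Dlx2OE replicate 1 was the highest of all 6 samples and the other Dlx2OE samples were the lowest, a 4.99-fold range within 1 genotype against 1.18-fold in WT. The mean was 65.8 ± 5.82 CPM (SD, n = 3) in WT and 46.7 ± 43.8 CPM (SD, n = 3) in Dlx2OE. The log2 fold change was -0.49 (SE 0.544), its 95% interval ran from -1.75 to 0.76, and the adjusted p was 0.568 by edgeR's quasi-likelihood test. Without Dlx2OE replicate 1 the log2 fold change was -1.62 (SE 0.146) with an adjusted p of 0.00214 by the same test, and without Dlx2OE replicate 3 it was -0.13 with an adjusted p of 0.902. Gm17028, the noncoding gene whose exon overlaps Alx1, had 62, 65 and 70 counts in WT, against 98, 16 and 19 in Dlx2OE, and so was likewise high in Dlx2OE replicate 1 and low in the other Dlx2OE samples. Both genes lie on the same strand, so in the counting mode used reads that fell within the shared 243 bp could be given to neither gene.

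In each Dlx2OE sample Alx1 was below Alx4, and in each WT sample it was above it. The ratio of Alx1 to Alx4 counts per kilobase of exon, which does not depend on library scaling, was 1.34, 1.54 and 1.35 in WT, against 0.613, 0.180 and 0.242 in Dlx2OE. Dlx2OE replicate 1 was thus on the same side as the other Dlx2OE samples in this ratio, although its Alx1 level was high. The mean log2 ratio went from 0.49 ± 0.111 (SD, n = 3) to -1.74 ± 0.922 (SD, n = 3), a difference of -2.24. An exact two-sided permutation test gave p = 0.1, the smallest that 3 samples against 3 allow, and the difference stayed between -2.75 and -1.87 when any 1 sample was left out.

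**Figure D2:**
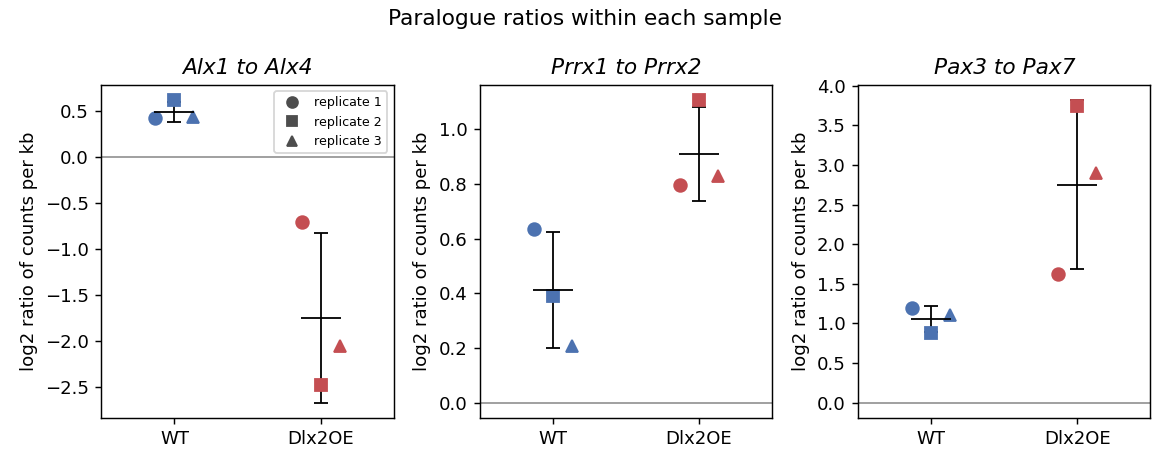
Log2 ratio of counts per kilobase of exon between the members of each pair, within each sample, with WT in blue and Dlx2OE in red, the replicate given by the marker shape, and the mean and 1 SD (n = 3) in black; the gray line marks equal levels. The genotypes do not overlap for any of the 3 pairs, and the largest difference is the shift of Alx1 to Alx4 from 0.49 in WT to -1.74 in Dlx2OE.

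Prrx1, a homeobox factor of jaw, skull and limb mesenchyme, was higher in all Dlx2OE samples, but by less than the other genes that did not overlap. The WT samples had 18442, 14358 and 17456 counts, against 20690, 31701 and 20219 in Dlx2OE. As CPM these were 630, 476 and 560 in WT, against 698, 1009 and 747 in Dlx2OE. Dlx2OE replicate 2 was the highest sample, and the gap between the lowest Dlx2OE sample and the highest WT sample was small. The mean was 555 ± 76.9 CPM (SD, n = 3) in WT and 818 ± 167 CPM (SD, n = 3) in Dlx2OE, a ratio of 1.47. The log2 fold change of 0.56 (SE 0.181, 95% interval 0.14 to 0.98) had an adjusted p of 0.0943 in edgeR's quasi-likelihood test. DESeq2 gave 0.55 with an adjusted p of 0.0185, the 1 of 9 alternatives in which Prrx1 passed. After the length and GC correction the log2 fold change was 0.38 with an adjusted p of 0.236 by edgeR. With the replicate block it was 0.55 with an adjusted p of 0.145 by edgeR. Prrx1 passed in 0 of the 6 fits with 1 sample left out, with adjusted p of 0.0727 to 0.273 by edgeR.

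Prrx2, which can take over part of the role of Prrx1 in the face, differed by less than the spread between samples. WT replicates had 2106, 1940 and 2677 counts (72, 64.4 and 85.9 CPM), and Dlx2OE replicates had 2113, 2608 and 2018 counts (71.3, 83.0 and 74.5 CPM). The groups overlapped, with the highest and the lowest sample both in WT. The mean was 74.1 ± 10.9 CPM (SD, n = 3) in WT and 76.3 ± 6.06 CPM (SD, n = 3) in Dlx2OE. The log2 fold change was 0.04 with a 95% interval from -0.25 to 0.33 and an adjusted p of 0.836 by edgeR. This is the narrowest interval among the 6 genes.

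The ratio of Prrx1 to Prrx2 counts per kilobase was 1.55, 1.31 and 1.16 in WT, against 1.74, 2.15 and 1.78 in Dlx2OE. Every Dlx2OE sample was above every WT sample. The mean log2 ratio was 0.41 ± 0.213 (SD, n = 3) in WT and 0.91 ± 0.171 (SD, n = 3) in Dlx2OE, a difference of 0.50 with p = 0.1 in the exact two-sided permutation test, the smallest it allows. The ratio was not corrected for a sample's bias by length and GC content. With that correction the log2 fold changes by edgeR were 0.38 for Prrx1 and 0.10 for Prrx2, closer together than the 0.56 and 0.04 of the main fit.

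Pax3, an early neural crest factor whose mutation causes Splotch in mice and Waardenburg syndrome in humans, had the largest fitted change of the 6 genes and the second smallest p. WT replicates had 325, 145 and 544 counts and Dlx2OE replicates 2148, 1227 and 668. These were 11.1, 4.81 and 17.4 CPM in WT and 72.5, 39.1 and 24.7 CPM in Dlx2OE. The groups did not overlap, but both were wide: the samples spanned 3.63-fold in WT and 2.94-fold in Dlx2OE, and Dlx2OE replicate 3 was the closest to WT. The mean was 11.1 ± 6.32 CPM (SD, n = 3) in WT and 45.4 ± 24.5 CPM (SD, n = 3) in Dlx2OE, a ratio of 4.08. The log2 fold change was 2.03 (SE 0.508, 95% interval 0.86 to 3.20) and the adjusted p 0.0544 in edgeR's quasi-likelihood test. The call turned on small changes of method: the adjusted p was 0.0490 when 10 counts were asked of every sample, 0.00291 without a filter on low counts, 0.0400 without WT replicate 3 and 0.0233 in DESeq2. It was 0.148 without WT replicate 1, 0.157 without WT replicate 2, 0.115 without Dlx2OE replicate 2 and 0.0689 with the replicate block by edgeR, so Pax3 passed in 1 of the 6 fits with 1 sample left out. Without Dlx2OE replicate 1 the log2 fold change was 1.51 with an adjusted p of 0.0605, and without Dlx2OE replicate 3 it was 2.33 with an adjusted p of 0.0582, both by edgeR.

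Pax7, which marks dorsal neural tube, part of the nasal and cranial crest and muscle stem cells, was the lowest of the 6 genes and rested on 1 sample. There were 135, 75 and 239 counts in the WT replicates, against 661, 87 and 85 in Dlx2OE. In CPM these were 4.61, 2.49 and 7.67 in WT, against 22.3, 2.77 and 3.14 in Dlx2OE. Dlx2OE replicate 1 was far above the rest, 8.05-fold over the lowest Dlx2OE sample, and the other Dlx2OE samples lay within the WT range. The mean was 4.92 ± 2.60 CPM (SD, n = 3) in WT and 9.41 ± 11.2 CPM (SD, n = 3) in Dlx2OE. The log2 fold change was 0.93, its 95% interval ran from -0.92 to 2.78, and the adjusted p was 0.460 by edgeR. Without Dlx2OE replicate 1 it was -0.75 with an adjusted p of 0.265, again by edgeR, so the direction turned on that sample.

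The ratio of Pax3 to Pax7 counts per kilobase was 2.28, 1.83 and 2.16 in WT, against 3.08, 13.4 and 7.44 in Dlx2OE. WT samples kept the ratio close although both genes varied 3.08-fold or more among them, with WT replicate 2 the lowest and WT replicate 3 the highest for each gene. In Dlx2OE the ratio was higher in every sample and varied. The mean log2 ratio was 1.06 ± 0.164 (SD, n = 3) in WT and 2.75 ± 1.07 (SD, n = 3) in Dlx2OE, a difference of 1.70 with p = 0.1 in the exact two-sided permutation test, the smallest it allows.

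**Figure D3:**
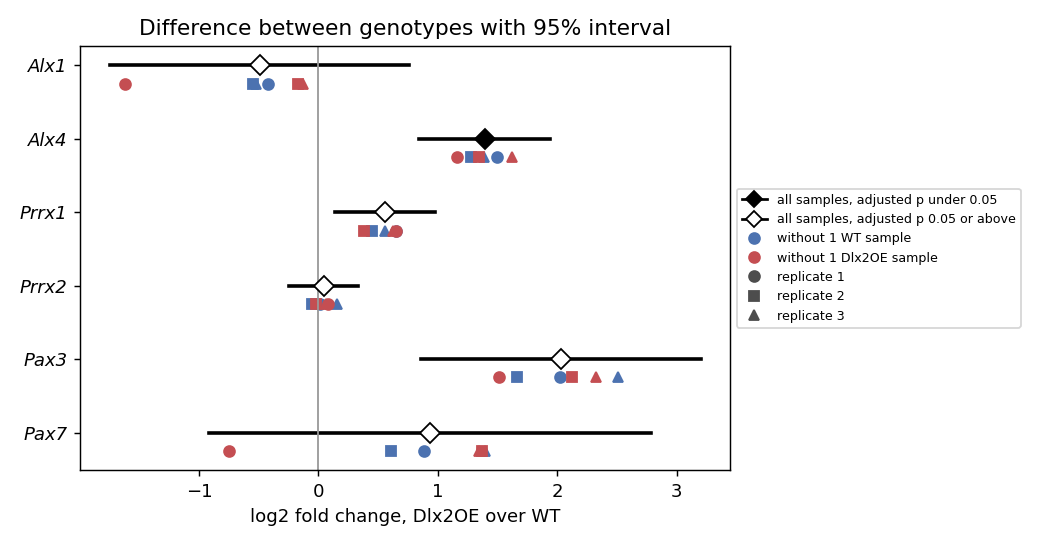
Log2 fold change of Dlx2OE over WT from edgeR for each gene (diamonds, filled at an adjusted p under 0.05) with its 95% interval (black line), and, in the row of small markers under each, the value with 1 sample left out (blue for a WT sample, red for a Dlx2OE sample, shape for the replicate). Alx4 is the filled diamond at 1.39, and leaving out Dlx2OE replicate 1 moves Alx1 from -0.49 to -1.62 and Pax7 from 0.93 to -0.75.

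The genes also differed in how much they varied between samples of 1 genotype. In WT the coefficient of variation was 8.84% to 15% for Alx1, Alx4, Prrx1 and Prrx2, and 56.8% and 52.9% for Pax3 and Pax7. In Dlx2OE it was 93.7% for Alx1 and 119% for Pax7, against 7.95% for Prrx2 and 20.5% for Prrx1. Dlx2OE replicate 1 was the highest of the 6 samples for Alx1, Alx4, Pax3 and Pax7, though not for Prrx1 or Prrx2.

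Marker sums of other cell types in the dissected tissue also differed in that sample. The summed level of 12 markers of surface and oral epithelium was 2007 CPM in Dlx2OE replicate 1, against 638 and 658 CPM in the other Dlx2OE samples and 826 to 1473 CPM in WT, with Krt14 the most abundant by mean in WT and Krt5 in Dlx2OE. The markers did not rise together in that replicate. Krt5 at 538, Krt14 at 490 and Krt15 at 168 CPM were above every WT sample, as were Trp63 and Esrp1. Epcam, Cdh1, Krt19, Perp and Grhl3 were inside the WT range, and Krt8 and Krt18 were below it. Of these 12 markers 0 passed as higher and 2 as lower by edgeR (1 and 4 at an unadjusted p under 0.05, and 0 and 3 by DESeq2). The sum of 6 periocular mesenchyme markers was 364 CPM in Dlx2OE replicate 1, 230 and 232 CPM in the other Dlx2OE samples and 180 to 251 CPM in WT. Of those 6 markers 3 rose, Foxl2, Lmx1b and Tfap2b. The part of these cell types in the levels of Alx1, Alx4, Pax3 and Pax7 was not tested. In bulk tissue, a different number of cells of a type and a different amount of RNA per cell cannot be told apart.

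Pax3 and Pax7 also mark cells that are few in a maxillary prominence. Markers of skeletal muscle, 14 genes led by Actc1 and Myh3, summed to 218 to 434 CPM in WT and 93.9 to 275 CPM in Dlx2OE, with the lowest sum in Dlx2OE replicate 1, where Pax3 and Pax7 were highest. Of these, 13 were tested, 0 passed in either direction by edgeR (0 higher and 4 lower at an unadjusted p under 0.05, and 0 and 1 by DESeq2), and Tnnc2 was at 0 in every WT sample. Melanoblast markers, 8 genes led by Kit, summed to 33.7 to 39.8 CPM in WT and 39.7 to 49.1 CPM in Dlx2OE. Of 6 tested, Dct and Pmel rose, while Tyrp1 and Mlana were too low to test. Markers of glia and Schwann cell precursors summed to 155 to 162 CPM in WT and 96.3 to 330 CPM in Dlx2OE, with Foxd3 at 0 counts in all 6 samples, which allows at most 0.0955 to 0.111 CPM. The glial sum was highest in Dlx2OE replicate 3, where Pax3 was lowest among the Dlx2OE samples. Their part in the Pax3 and Pax7 levels was not tested.

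Levels of different genes were compared per kilobase of exon, as RPKM with the same scaling. In WT the order was Prrx1 at 50.2 ± 6.95 RPKM (SD, n = 3), Prrx2 at 37.8 ± 5.56, Alx1 at 11.4 ± 1.01, Alx4 at 8.16 ± 1.23, Pax3 at 1.80 ± 1.02 and Pax7 at 0.840 ± 0.444. Prrx1 and Prrx2 overlapped in WT, as did Pax3 and Pax7, while Prrx2 and Alx1, Alx1 and Alx4, and Alx4 and Pax3 did not. Prrx1 stood at the 95.1st percentile of 17496 genes with a known exon length in WT, and Pax7 at the 24.9th.

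In Dlx2OE the order was Prrx1 at 73.9 ± 15.1 RPKM (SD, n = 3), Prrx2 at 38.9 ± 3.09, Alx4 at 21.4 ± 6.89, Alx1 at 8.12 ± 7.61, Pax3 at 7.34 ± 3.97 and Pax7 at 1.61 ± 1.91. Alx4 and Alx1 had changed places, although their Dlx2OE samples overlapped, and Alx1 overlapped with Pax3. Prrx1 no longer overlapped with Prrx2. Alx4 moved from the 66.2nd to the 86.8th percentile and Pax3 from the 35.7th to the 63.6th.

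**Figure D4:**
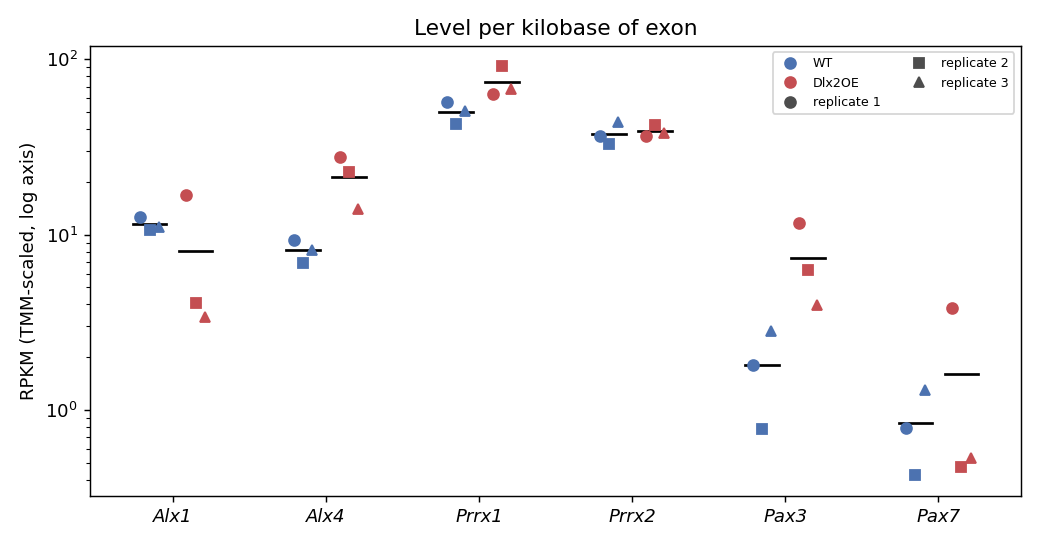
Level per kilobase of exon of each gene in each sample (RPKM, TMM-scaled, log axis), with WT in blue and Dlx2OE in red, the replicate given by the marker shape and the group mean by a black line. Prrx1 and Prrx2 are the highest in both genotypes, Pax7 is the lowest, and Alx4 goes from below Alx1 in WT (8.16 against 11.4) to above it in Dlx2OE (21.4 against 8.12).

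The genes closest in pattern were found by the root mean square distance between log2 CPM values centred on each gene's mean over the 6 samples, among 13439 genes with a mean log2 CPM of at least 1. Alx4 was closest to the agouti gene a (distance 0.204), which encodes a secreted antagonist of melanocortin signalling, and to Hpgd (0.211), a prostaglandin-degrading enzyme. The agouti gene a had a log2 fold change of 1.80 (adjusted p 0.0187 by edgeR) and Hpgd 1.11 (0.0213). Alx1 was closest to Pmaip1 (0.215), a proapoptotic BH3-only gene, and to Sh3rf2 (0.30). Both shared with Alx1 the low values in Dlx2OE replicates 2 and 3, and neither passed the test.

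Prrx1 was closest to Zgrf1 (0.0705) and Itih5 (0.0828), and Prrx2 to Gm14230 (0.0388) and Tesk2 (0.0490). These small distances go with genes that varied little. Pax3 was closest to Gm5913 (0.376) and Cobll1 (0.382), and Pax7 to the thyroid hormone receptor gene Thrb (0.517) and the endothelial factor Sox18 (0.559). None of the 6 genes was among the 2 closest to another.

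The genes next to them on the chromosomes were compared in the same fit. Of the 12 nearest coding genes, 9 were tested and 0 passed at an adjusted p under 0.05 by edgeR or by DESeq2, although 2 of them, Rassf9 and Klhdc7a, had an unadjusted p under 0.05. Accs, the tested neighbour of Alx4 at a distance of 152127 bp, had a log2 fold change of 0.21 (SE 0.189, adjusted p 0.474 by edgeR). Epha4 and Sgpp2 beside Pax3 were at -0.02 and 0.35, with adjusted p of 0.947 and 0.758 by edgeR. Klhdc7a, 126691 bp from Pax7, was at -1.17 with an adjusted p of 0.0622, and Rassf9, 448970 bp from Alx1, at -0.55 with 0.108, both by edgeR.

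The RefSeq table (GRCm38.p6) held promoters, from 250 bases before to 50 after the transcript start, for 3 of the 6 genes. These were Prrx1, Prrx2 and Pax7. Both strands were searched for the homeodomain site TAATTA and for the palindromes TAATNNATTA and TAATNNNATTA, in which the TAAT cores face each other. Of 32851 promoters of this length, 5.29% held TAATTA, 0.390% TAATNNATTA and 0.487% TAATNNNATTA. The Prrx1 promoter is shown because it was the one of the 3 with a match: TAATTA, in capitals, begins 173 bases before the start (chr1:163313601-163313900, reverse strand, 47.7% GC):
Prrx1 promoter: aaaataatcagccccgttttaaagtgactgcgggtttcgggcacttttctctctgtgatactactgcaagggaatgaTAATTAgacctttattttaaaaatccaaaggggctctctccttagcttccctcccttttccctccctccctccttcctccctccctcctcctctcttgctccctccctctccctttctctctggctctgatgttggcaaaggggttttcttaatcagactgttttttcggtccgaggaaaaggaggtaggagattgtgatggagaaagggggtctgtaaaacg
The promoters of Prrx2 (70.3% GC) and Pax7 (63.7% GC) held no match to these letters in this window.

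Related genes were read against the same shares of all genes tested, 2.99% higher and 3.46% lower. Those shares are for the adjusted p by edgeR. At an unadjusted p under 0.05, 29.5% of all genes passed in either direction, and DESeq2 passed 2428 of 19047 genes. Of 24 other paired-class homeobox genes, 13 were tested, 0 rose and 1 fell by edgeR (1 and 2 at an unadjusted p under 0.05, and 0 and 3 by DESeq2), with a median log2 fold change of -0.22. Otx2, a head and forebrain factor, was at -3.18 with an adjusted p of 0.0628 by edgeR. Drgx, a sensory neuron factor, was at 3.80 with an adjusted p of 0.136 by edgeR. It had 5, 52 and 12 counts in WT, against 2, 218 and 677 in Dlx2OE, so Dlx2OE replicate 1 was below every WT sample. The sum of 10 sensory neuron markers was 189, 499 and 1040 CPM in Dlx2OE replicates 1 to 3, against 65.4 to 320 CPM in WT, with Dlx2OE replicate 1 inside the WT range.

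Of the 7 other Pax genes, 3 were tested, and Pax1 and Pax9, which form a subfamily without a homeodomain, moved in opposite directions. Pax1 rose from 7.74 ± 4.2 to 109 ± 48.8 CPM (SD, n = 3 each), with a log2 fold change of 3.81 and an adjusted p of 0.00939 by edgeR. WT replicates had 125, 374 and 204 counts, against 4714, 1936 and 2842 in Dlx2OE. Pax9, which is required for palate and tooth development, fell from 100 ± 15.1 to 46.8 ± 8.18 CPM (SD, n = 3 each), with a log2 fold change of -1.10 and an adjusted p of 0.0141 by edgeR. WT replicates had 2623, 2810 and 3662 counts, and Dlx2OE replicates, each below all of WT, had 1106, 1606 and 1404. Pax1 passed in all 6 fits with 1 sample left out and Pax9 in 5 of 6, and Pax6 was at -0.28 with an adjusted p of 0.811 by edgeR. Unlike Alx1, neither Pax1 nor Pax9 had Dlx2OE replicate 1 on the far side of WT from the other Dlx2OE samples.

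Factors that act with Pax3 at the neural plate border and in early crest had a median log2 fold change of 0.58. Of 15 listed, 14 were tested, 4 rose and 0 fell by edgeR (7 and 1 at an unadjusted p under 0.05, and 5 and 1 by DESeq2). Msx2, a homeobox target of BMP signals, had a log2 fold change of 1.69 (adjusted p 0.0211 by edgeR), with 171, 255 and 310 counts in WT, against 1063, 765 and 489 in Dlx2OE. Tfap2a was at 1.48 (adjusted p 0.0207 by edgeR), Tfap2b at 1.58 (0.0464) and Twist1 at 0.65 (0.0402). The count of 4 went to 0 without WT replicate 1 or WT replicate 2 and to 1 without Dlx2OE replicate 2. Over all genes, 1130 passed in the full fit, against 180, 79 and 213 without these samples in turn. The number was 2091 without WT replicate 3, 1944 without Dlx2OE replicate 1 and 315 without Dlx2OE replicate 3. List counts with 1 sample left out, here and below, stand beside these numbers.

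In the Waardenburg and melanoblast network, part of which lies downstream of Pax3 in pigment cells, 10 of 11 genes were tested, 2 rose and 0 fell by edgeR, with a median log2 fold change of 0.38. At an unadjusted p under 0.05 the counts were 5 and 0, and by DESeq2 3 and 0. The genes that rose encode melanosome proteins at low levels: Dct went from 0.609 ± 0.0830 to 2.77 ± 0.491 CPM (SD, n = 3 each; log2 fold change 2.18, adjusted p 0.0104 by edgeR). Pmel went from 0.829 ± 0.118 to 3.42 ± 1.80 CPM (SD, n = 3 each; 2.04, adjusted p 0.0381 by edgeR). Mitf, the master regulator of this lineage, was at 0.46 with an adjusted p of 0.232 by edgeR, and Tyr was at 2.79 with 0.0543. The count of 2 went to 0 without WT replicate 2 and to 1 without WT replicate 1, WT replicate 3 or Dlx2OE replicate 3.

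In the muscle progenitor network, where Pax3 and Pax7 act upstream of the myogenic factors, 13 of 14 genes were tested, 0 rose and 1 fell by edgeR, with a median log2 fold change of -0.49. At an unadjusted p under 0.05 the counts were 0 and 4, and by DESeq2 0 and 3. Tbx1, a T-box factor of pharyngeal mesoderm and epithelium, fell from 23.8 ± 5.46 to 11.8 ± 2.68 CPM (SD, n = 3 each), with a log2 fold change of -1.01 and an adjusted p of 0.0416 by edgeR. Myf5, an early myogenic factor, was at -1.17 with an adjusted p of 0.0948 by edgeR. The count for lower genes was 4 without Dlx2OE replicate 1 and 0 without any other single sample. Without Dlx2OE replicate 1, 1944 of all genes passed, against 1130 in the full fit.

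Genes of frontonasal and skull dysmorphology, the disorders in which ALX mutations are found, were tested for 11 of 11 members. Of these 2 rose, Msx2 and Twist1, and 1 fell, with a median log2 fold change of 0.28. The gene that fell was Six2, a mesenchymal factor of frontonasal and palatal tissue, from 268 ± 25 to 127 ± 13.7 CPM (SD, n = 3 each), with a log2 fold change of -1.08 and an adjusted p of 0.00802 by edgeR, and it passed in each of the 6 fits that left out 1 sample. The count for higher genes was 0 without WT replicate 1, WT replicate 2 or Dlx2OE replicate 2.

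Signals and matrix genes linked to Prrx and Alx function were tested for 13 of 13 members, with 1 higher, 2 lower and a median log2 fold change of -0.26. Shh, the hedgehog ligand of oral epithelium, fell from 16.8 ± 1.98 to 6.79 ± 1.97 CPM (SD, n = 3 each), with a log2 fold change of -1.31 and an adjusted p of 0.0228 by edgeR. Tgfb2, a growth factor of palatal mesenchyme, was at -0.61 (adjusted p 0.0309 by edgeR) and Gli3, the hedgehog repressor whose mutants share extra digits with Alx4 mutants, at 0.60 (0.0356). Pdgfra, the receptor that marks this mesenchyme, was at 0.05 with a 95% interval from -0.33 to 0.43 and an adjusted p of 0.855 by edgeR. The counts in both directions went to 0 without WT replicate 1, WT replicate 2, Dlx2OE replicate 2 or Dlx2OE replicate 3.

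**Figure D5:**
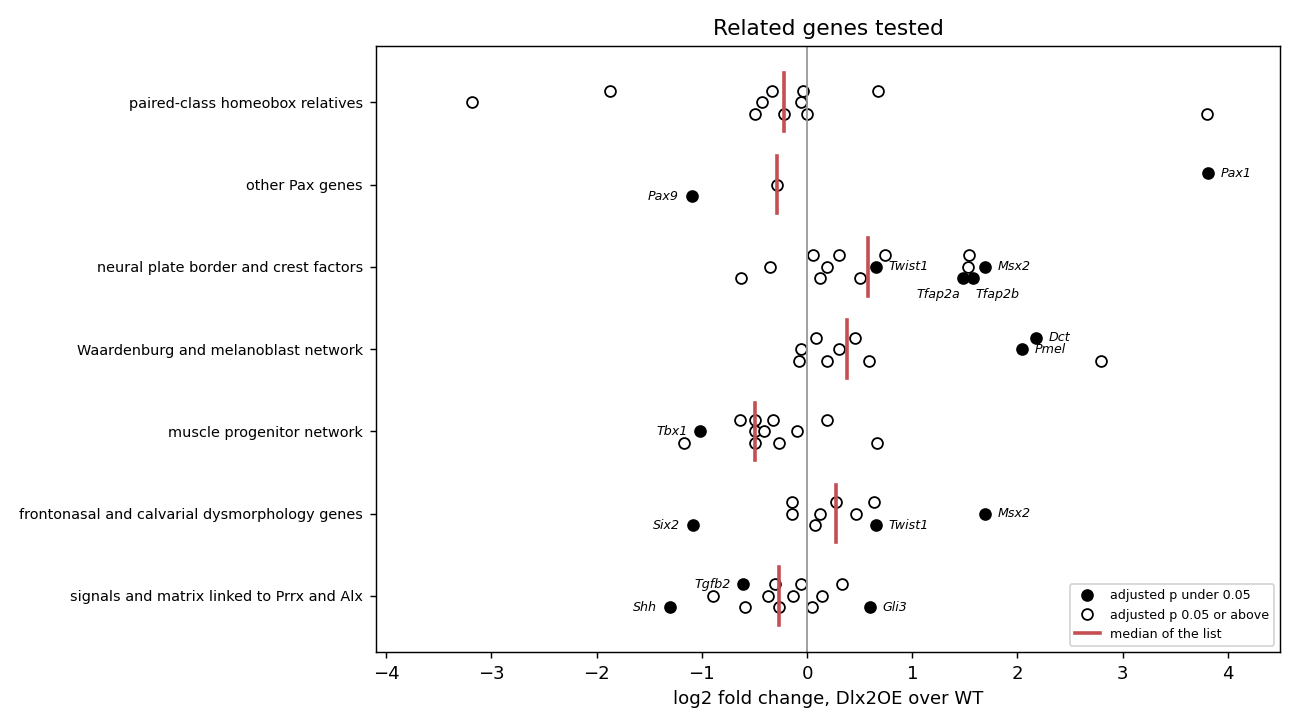
Log2 fold change of Dlx2OE over WT for tested genes of 7 related lists (rows; 1 circle a gene, filled at an adjusted p under 0.05 by edgeR and then named), with the median over all tested genes of each list as a red line and 0 in gray. The circles of neural plate border and crest factors have the highest median, 0.58, and those of the muscle progenitor network the lowest, -0.49.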

How the data were processed

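Bulk RNA-seq of E12.5 maxillary prominences was analysed in 3 WT and 3 Dlx2OE samples, grouped by the genotype in the sample labels; 3 independent RNA samples were prepared per genotype. Per the study's methods and the submitters' processing notes, the authors filtered the reads, aligned them to mm10 with STAR 2.7.3a and counted them with HTSeq 0.12.4 in union mode. The deposited values are raw counts per Ensembl gene. Annotation release and strand setting are not given in the sources used here. Of 53801 gene rows, 53706 matched GENCODE M21 and 95 had no symbol. Summary lines for reads assigned to no feature (5.34% to 15.4%) and for ambiguous reads (6.26% to 7.36%) were left out of the tests.

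Genes were kept by filterByExpr with a minimum count of 10, scaled by TMM and tested with the quasi-likelihood F test of edgeR 4.0.16 (R 4.3.3, limma 3.58.1) with genotype as the sole term and p-values adjusted by the Benjamini-Hochberg method over 17514 genes. The study's methods used DESeq2, tried here as version 1.42.0. The SE is the absolute log2 fold change over the square root of F. CPM and RPKM were computed from the counts, and centred log2 CPM values used a prior count of 2. A count of 3 was the floor for a gene at 0, 0.0955 to 0.111 CPM, for counting error only. Other alternatives were RLE factors, library size alone, other filters, a replicate block, a length and GC correction with a loess span of 0.5, a fit without haemoglobin genes and genes of mitochondrial DNA, and leaving out each sample.

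The 6 genes and the gene lists were chosen with earlier results of these data known. Named besides the 6 are Dlx2, list genes past both thresholds or with the smallest p, the most abundant markers, genes of like pattern and neighbours. Pax6, Pdgfra, Mitf, Drgx and Foxd3 were named after their values were seen. Drgx and Kitlg matched the annotation as Prrxl1 and Kitl through RefSeq synonyms. The scripts were tested on simulated data. Python 3.11.15 with pandas 2.3.3 and matplotlib 3.10.9 was used for tables and plots. The study's qPCR and imaging were not analysed here, and some genes and sequences that count in the lists and comparisons are not reported.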

Additional observations from a re-analysis of the deposited data

How the results depend on the processing

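Alx4 kept its direction in every fit and passed in 8 of 9 alternatives, with log2 fold changes of 1.18 to 1.46. It missed after the length and GC correction at 1.23 (adjusted p 0.0511 by edgeR), and then 0 of the 6 genes passed with or without the fold threshold. Pax3 passed at 2.01 without a filter, at 2.03 with 10 counts in every sample and at 2.03 in DESeq2, so 2 genes were called in each of these. DESeq2 also passed Prrx1 at 0.55, which made 3 genes at an adjusted p under 0.05. RLE factors, library size alone and removing haemoglobin and mitochondrially encoded genes changed no call. Over all genes, 1130 passed by edgeR, 2428 by DESeq2, 2044 without a filter, 577 after the length and GC correction with the replicate block, and 79 to 2091 with 1 sample left out.

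With 1 sample left out, log2 fold changes ranged from -1.62 to -0.13 for Alx1, 1.16 to 1.62 for Alx4, 0.38 to 0.65 for Prrx1, -0.056 to 0.15 for Prrx2, 1.51 to 2.51 for Pax3 and -0.75 to 1.40 for Pax7. Prrx2 turned to -0.056 without WT replicate 2 and to -0.024 without Dlx2OE replicate 2, and Pax7 to -0.75 without Dlx2OE replicate 1. The numbers of the 6 genes that passed and that were called ran from 0 to 2. They were 0 without WT replicate 1, WT replicate 2 or Dlx2OE replicate 2, where 180, 79 and 213 of all genes passed. They were 2 without WT replicate 3 or Dlx2OE replicate 1, where 2091 and 1944 of all genes passed. The log2 ratios differed by -2.75 to -1.87 for Alx1 to Alx4, 0.40 to 0.61 for Prrx1 to Prrx2 and 1.20 to 2.26 for Pax3 to Pax7. Counts in the related lists with 1 sample left out were added after the data were seen. The cause of these changes was not tested.

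The labels number replicates 1 to 3 in both genotypes. Deviations of same-numbered samples correlated at -0.07, -0.21 and 0.07, and not every sample correlated best with its own number. No pairing by number was therefore seen. With deviations from the means of 3 samples a group, this check cannot show that the samples are unpaired. With the replicate block the log2 fold changes were -0.89 for Alx1, 1.35 for Alx4 (adjusted p 0.0310 by edgeR), 0.55 for Prrx1, 0.05 for Prrx2, 2.09 for Pax3 and 0.38 for Pax7, 1 gene was called, and 961 of all genes passed. With 3 samples a group, the 95% intervals of Alx1, Prrx2 and Pax7 include 0, and a change inside them could not be told from none.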

Other observations

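Other cell types in the dissected tissue were described by their marker sums. Erythroid markers, 8 genes, summed to 3061 to 4099 CPM in WT and 1855 to 2357 CPM in Dlx2OE, without overlap, and 0 passed as higher and 2 as lower by edgeR (0 and 5 at an unadjusted p under 0.05, and 0 and 4 by DESeq2). Macrophage markers, also 8 genes, summed to 87.3 to 93.9 CPM in WT and 58.3 to 62.6 CPM in Dlx2OE, again without overlap, and the complement genes C1qa, C1qb and C1qc fell. Endothelial markers summed to 307 to 458 CPM in WT and 217 to 343 CPM in Dlx2OE, and 1 of 8 passed as lower.

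Markers of nasal and olfactory epithelium summed to 97.2 to 206 CPM in WT and 76.3 to 104 CPM in Dlx2OE, and 0 of 8 rose and 1 fell by edgeR. Forebrain progenitor markers summed to 18.0 to 84.5 CPM in WT. In Dlx2OE they summed to 86.1 CPM in replicate 1, above every WT sample, and to 27.6 and 33.5 CPM in replicates 2 and 3. Of 7 tested, 5 had a log2 fold change below 0 and 2 above it, with a median of -0.93. By edgeR 1 rose, Emx2, from 9.82 to 30.0 CPM (adjusted p 0.0218), and 0 fell. At an unadjusted p under 0.05 the counts were 1 and 1, and by DESeq2 1 and 0. Mandibular mesenchyme markers summed to 71.5 to 92.3 CPM in WT and 76.2 to 97.4 CPM in Dlx2OE, and 0 of 5 tested passed by edgeR, at an unadjusted p under 0.05 or by DESeq2.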
